A study of Homo sapiens with 8 samples.

Results

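The mitochondrial ribosomal protein genes are the nuclear genes with MRPL symbols (large subunit) and MRPS symbols (small subunit). A gene was taken as a member when its symbol was MRPL or MRPS with a number and at most a letter A, B or C, and when it had a value of at least 1 in at least 2 libraries. Of 77 such symbols, 73 met this minimum, 47 MRPL and 26 MRPS, among 12939 genes tested. MRPL23, MRPS12, MRPS18B and MRPS24 did not: they were listed in the second of the 2 deposited tables alone, with a highest value of 0.393 for MRPL23. Such values need not mean that the RNA was absent, and whether reads of these genes were lost in the counting was not tested. The lowest member, MRPL46, lay between 1.42 and 2.12 in the 7 libraries deposited with decimals.

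The mitochondrial ribosome makes the few respiratory chain and ATP synthase proteins that are encoded in mitochondrial DNA. Its RNAs come from that DNA, while all of its proteins are encoded in the nucleus, made in the cytosol and imported. Many of them descend from bacterial ribosomal proteins and others were added in mitochondria. Acute myeloid leukaemia cells are known for a high reliance on mitochondrial respiration and translation. The symbol does not always give the place: MRPS30 and MRPS18A sit in the large subunit, and MRPS36 is now known as a subunit of the 2-oxoglutarate dehydrogenase complex.

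RNA was sequenced from sorted KG-1a cells, labelled as leukemia stem cells. KG-1a is a long-established line from human acute myeloid leukaemia. Control cells carried a lentiviral control hairpin (shCTL, genotype given as WT), and knockdown cells carried a hairpin against NYNRIN (shNYNRIN). There were 4 libraries per group, with 2 of each group in each table. Set 1 is the first table (replicates 1 and 2 by title) and set 2 is the second (replicates 3 and 4). No label says whether replicates were separate cultures or how many hairpin sequences were used, and the spread behind each p-value is that among these libraries, technical or not. Values are read as FPKM, reads scaled to gene length and library size, so that levels can be set side by side between genes. The column of shCTL replicate 3 holds whole numbers without decimals and does not enter the tests, so that set 2 rests on 1 control library. A second number stands in the library names. Set 1 holds the shCTL libraries named 3 and 4 with the shNYNRIN libraries named 1 and 2, and set 2 holds the shCTL libraries named 1 and 2 with the shNYNRIN libraries named 3 and 4. A difference between the sets in the effect of the hairpin therefore cannot be told apart from a difference between libraries named 1 or 2 and libraries named 3 or 4.

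NYNRIN itself fell from 12.2 and 12.5 FPKM to 6.98 and 7.30 FPKM in set 1, and from 10.4 FPKM in shCTL replicate 4 to 2.83 and 2.84 FPKM in set 2. TXNIP, named in the title of the series, stood at 80.6 and 77.9 FPKM against 138.7 and 140.6 FPKM in set 1, and at 95.4 FPKM against 103.2 and 101.4 FPKM in set 2. All 8 markers fixed for the line were detected, and 7 had at least 1 FPKM in each of the 7 libraries. CD34 was the exception, at 0.681 to 1.79 FPKM. It was 0.949 and 0.933 in shCTL and 1.42 and 1.20 with shNYNRIN in set 1, and 1.79 against 0.765 and 0.681 in set 2, so that libraries named 1 or 2 lay above those named 3 or 4. Of 11 markers of other cells reported here, HBB, PECAM1 and CDH5 reached 1 FPKM. HBB and PECAM1 summed to 68.7 to 74.4 FPKM in set 1 and 63.7 to 80.8 FPKM in set 2. The T cell, B cell, fibroblast and epithelial markers were below 1 FPKM or not listed, and the part of any marker in the results was not tested. The 7 libraries deposited with decimals summed to 307554 to 311536 FPKM over genes in both tables, with 12287 to 12557 genes at 1 FPKM or more, and the whole-number column summed to 303519. How deeply each library was sequenced is not given here. In the authors' deposited table for set 1, members had mean normalized counts of 187 to 10240, with a median of 1970.

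Promoters of genes for the mitochondrial ribosome are known for sites of NRF1 and of ETS factors such as GABPA. Of the members whose response to the hairpin differed between the sets, 4 hold a match to the NRF1 letters (GCGC, any base, then TGCGC) or the ETS letters (CCGGAAGT) on either strand in the 250 bases before their start. Their promoters are shown for the place of the match, from RefSeq on GRCh38.p14, 5′ to 3′ on the strand of the gene, with the match in capitals. MRPL3 (chr3:131502972-131503221, minus strand) and MRPL47 (chr3:179604639-179604888, minus strand) hold the ETS letters 24 and 31 bases before the start. MRPL30 (chr2:99180934-99181183, plus strand) and MRPS9 (chr2:105037819-105038068, plus strand) hold the NRF1 letters 106 and 30 bases before it.
MRPL3: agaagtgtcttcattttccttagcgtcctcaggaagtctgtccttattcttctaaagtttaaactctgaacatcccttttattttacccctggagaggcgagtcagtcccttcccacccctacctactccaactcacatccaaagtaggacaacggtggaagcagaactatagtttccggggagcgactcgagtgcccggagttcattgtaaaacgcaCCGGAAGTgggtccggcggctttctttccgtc
MRPL47: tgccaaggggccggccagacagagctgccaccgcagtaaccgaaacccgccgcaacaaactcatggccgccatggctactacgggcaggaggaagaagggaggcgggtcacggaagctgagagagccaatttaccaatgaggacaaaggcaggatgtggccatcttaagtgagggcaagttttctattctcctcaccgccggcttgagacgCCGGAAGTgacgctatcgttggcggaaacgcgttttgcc
MRPL30: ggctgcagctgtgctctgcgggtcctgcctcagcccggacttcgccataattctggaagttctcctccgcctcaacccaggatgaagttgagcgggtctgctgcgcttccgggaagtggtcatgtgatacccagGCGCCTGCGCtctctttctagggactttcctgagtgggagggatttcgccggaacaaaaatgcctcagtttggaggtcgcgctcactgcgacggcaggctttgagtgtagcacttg
MRPS9: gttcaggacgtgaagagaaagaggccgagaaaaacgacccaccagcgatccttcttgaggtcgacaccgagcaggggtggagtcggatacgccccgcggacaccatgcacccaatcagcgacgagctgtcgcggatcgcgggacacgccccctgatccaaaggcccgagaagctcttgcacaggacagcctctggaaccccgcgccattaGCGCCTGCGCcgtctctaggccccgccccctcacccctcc

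A promoter was found for 65 of the 73 members. The NRF1 letters stood in 8 of them (12.3%), against 11.1% of the 8994 tested genes with a promoter and 5.53% of all 27305 promoters. The ETS letters also stood in 8 (12.3%), against 7.74% and 3.64%. No promoter of a member held both, since 16 of 65 held a match to at least one of them. Among the 16 members with a promoter that passed for the difference between the sets, 12.5% held each motif, and among the 49 others 12.2% did. A match describes letters only, and a promoter without one may hold other forms of a site.

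Levels of the 73 members spanned a wide range between genes and a narrow one between libraries. The median MRPL gene had a mean of 28.96 FPKM over 7 libraries and the median MRPS gene 20.7 FPKM. Large subunit genes ranged from 1.71 to 168.4 FPKM, with 12 above 50 and 4 below 10 FPKM. Small subunit genes ranged from 3.06 to 87.0 FPKM, with 3 above 50 and 8 below 10 FPKM. The coefficient of variation over the 7 libraries had a median of 6.92% for MRPL and 7.39% for MRPS genes. Members took between 0.747% and 0.813% of the summed FPKM of a library.

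MRPL37, a subunit added in mitochondria, had the highest level, with 165.6 and 173.2 FPKM in shCTL and 168.1 and 160.3 FPKM with shNYNRIN in set 1. In set 2 it had 173.4 FPKM in shCTL replicate 4 and 167.1 and 171.2 FPKM with shNYNRIN. Its groups overlapped in both sets, and its range did not meet that of any other member. MRPL41 (98.8 FPKM) and MRPL14 (91.8 FPKM) followed in the large subunit, and MRPS10 (87.0 FPKM), MRPS15 (59.2 FPKM) and MRPS7 (54.9 FPKM) led the small subunit. These neighbours were not clearly ordered: MRPL41 lay between 90.1 and 111.9 FPKM, MRPL14 between 82.1 and 100.4 FPKM and MRPS10 between 79.8 and 94.6 FPKM. At the low end stood MRPL46 (1.71 FPKM), MRPL38 (3.62 FPKM) and MRPL2 (6.66 FPKM), and MRPS17 (3.06 FPKM), MRPS5 (3.24 FPKM) and MRPS25 (4.13 FPKM).

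The mean of log2(FPKM + 1) was higher over MRPL than over MRPS genes in each library, by 0.59 to 0.65 and by 0.62 over the 7 libraries. Counting MRPS30 and MRPS18A with the large subunit and leaving MRPS36 out gave 0.64, and taking genes of at least 10 FPKM gave 0.35. The large minus small difference was 0.589 and 0.626 in shCTL and 0.628 and 0.620 with shNYNRIN in set 1. In set 2 it was 0.595 in shCTL replicate 4, 0.629 in shCTL replicate 3 with 0.5 added to its values, and 0.649 and 0.638 with shNYNRIN. The effect of the hairpin on the large minus that on the small subunit was 0.016 in set 1 and 0.049 in set 2, beside an SD of 0.0159 between replicates. The value of set 2 rests on shCTL replicate 4. The control left out of the tests, at 0.629, lay below both shNYNRIN libraries of set 2 and above both of set 1.

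In set 1, more members rose than fell with the hairpin, each by a small amount. The median log2 fold change of members was 0.083, against 0.026 for all genes, and 56 of 73 were positive. By limma, 15 members (20.5%) rose and none fell, against a background of 9.33% of all genes that rose and 6.61% that fell. The rises were 10 of 47 MRPL and 5 of 26 MRPS genes, shares of 21.3% and 19.2%. By place in the ribosome they were 11 of 49 large (22.4%) and 4 of 23 small subunit genes (17.4%). An unadjusted p under 0.05 was reached by 31 members, 30 of them with a positive value, and by 4191 of all 12939 genes. In RNA of many cells, a change in a share of the cells and a change in the RNA of each cell cannot be told apart.

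MRPL13 (ENSG00000172172), a counterpart of a bacterial large subunit protein, had 32.1 and 34.3 FPKM in shCTL and 42.7 and 41.7 FPKM with shNYNRIN. On the log2 scale it rose by 0.34 (SE 0.043), the highest among the 15 (limma adjusted p = 0.00577). MRPL24 (ENSG00000143314, chr1:156737303-156741590, minus strand in GENCODE 29 on GRCh38), a counterpart of a bacterial protein near the exit of the peptide tunnel, had 57.6 and 55.6 FPKM against 71.1 and 66.9 FPKM. That is a rise of 0.28 (SE 0.044) with a limma adjusted p of 0.0104. MRPL39 (ENSG00000154719, chr21:25585656-25607517, minus strand), added in mitochondria, had 52.8 and 54.8 FPKM against 63.6 and 64.1 FPKM, a rise of 0.24 (SE 0.031) with a limma adjusted p of 0.00578. MRPS10 (ENSG00000048544, chr6:42206801-42217865, minus strand), of bacterial kin, had 79.8 and 80.4 FPKM against 94.6 and 93.97 FPKM, a rise of 0.23 (SE 0.027) with a limma adjusted p of 0.00424. In each of these genes both shNYNRIN libraries lay above both shCTL libraries, and the groups did not overlap.

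The other rises by size were MRPS26 (0.28) and MRPL40 (0.28), both added in mitochondria, MRPL4 (0.26), which lines the peptide tunnel, and MRPL3 (0.22), which lies close to the peptidyl transferase centre. MRPL10 (0.22), at the base of the stalk that receives translation factors, and MRPS9 (0.20) complete the first 10. MRPL49, MRPL16, MRPS35, MRPS30 and MRPL18 rose by 0.19 or less, down to 0.14. The count was 4 members up and 1 down without shCTL replicate 1, 5 up without shCTL replicate 2 and 9 up without shNYNRIN replicate 1, where 2.56%, 2.68% and 6.11% of all genes rose. With upper-quartile scaling 9 rose, and the split of all genes turned to 6.10% higher and 9.14% lower. Without the mean-variance trend 4 rose (5.48%), near the 4.39% of all genes. MRPL13, MRPL39 and MRPS10 passed in all 17 alternatives tried, and MRPL24 in all but the one without shCTL replicate 2. The other named rises were less stable: MRPL10 and MRPS9 did not pass in 8 of the 17, MRPS26 in 6, MRPL4 in 4, and MRPL40 and MRPL3 in 3 each. MRPS26 and MRPS9 did not pass when any one library of set 1 was left out. MRPL10 did not pass without shCTL replicate 1 or 2 or shNYNRIN replicate 3 or 4, with upper-quartile scaling, without the trend, with set 1 alone or with the replicate block by title. In the authors' deposited table, 13 members had a q-value under 0.05, all higher with shNYNRIN, against 9.40% of genes higher and 10.6% lower, and 10 of them were among the 15.

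In set 2, more members fell than rose. The median log2 fold change of members was -0.081, against 0.018 for all genes, and 49 of 73 were negative. By limma, 14 members (19.2%) fell and 4 (5.48%) rose, against a background of 8.71% of genes that fell and 11.6% that rose. The falls were 7 of 47 MRPL genes (14.9%) and 7 of 26 MRPS genes (26.9%), and 2 genes of each symbol rose. By place in the ribosome, 7 of 49 large subunit genes (14.3%) and 6 of 23 small subunit genes (26.1%) fell. By place 3 large and 1 small subunit genes rose.

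MRPS21 (ENSG00000266472, chr1:150293720-150308979, plus strand), a small protein of bacterial kin, had 41.0 FPKM in shCTL replicate 4 and 31.9 and 31.0 FPKM with shNYNRIN. The shCTL replicate that was left out was listed at 41. Its log2 value of -0.37 (SE 0.049) was the deepest of the falls, with a limma adjusted p of 0.00366, and passed in all 15 alternatives. MRPL24 had 63.3 FPKM against 52.8 and 49.8 FPKM, with 66 in the whole-number control, a log2 value of -0.30 (SE 0.054) with a limma adjusted p of 0.0114. MRPL39 had 68.5 FPKM against 59.6 and 58.5 FPKM, with 67 in the whole-number control, a log2 value of -0.21 (SE 0.038) with a limma adjusted p of 0.0114. In these genes both shNYNRIN libraries lay below both controls of set 2.

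MRPS36 (-0.34), MRPL21 (-0.28), MRPS31 (-0.28), MRPS7 (-0.26), MRPS26 (-0.25), MRPS15 (-0.25) and MRPL11 (-0.24) also fell, as did MRPL47, MRPL18, MRPL3 and MRPS2 by smaller amounts, down to 0.17 in size. MRPS7 is a counterpart of a bacterial protein of the head of the small subunit, and MRPL11 sits at the base of the stalk. MRPS26 had 30.1 FPKM in shCTL replicate 4 but 25 in the whole-number control, beside 26.4 and 23.8 FPKM with shNYNRIN. With that control included as deposited, its value was -0.12 and did not pass (limma adjusted p = 0.296, 0.0191 to 0.296 over 15 alternatives). MRPS15 had 63.0 FPKM in shCTL replicate 4 but 56 in the whole-number control, beside 53.0 and 52.3 FPKM with shNYNRIN. Its value lay between -0.27 and -0.17 over 15 alternatives and passed in 14 of them. Of the other falls given with a value, MRPS26 lay close to the threshold and did not pass in 11 of the 15. MRPS36 did not pass in 5, MRPL21, MRPS7 and MRPL11 in 3 each, MRPL39 in 2, and MRPL24 and MRPS31 in 1 each. Rises were seen for MRPL10 (0.27), MRPL34 (0.23), MRPS18A (0.21) and MRPS35 (0.19). Without shNYNRIN replicate 3 the counts were 1 up and 7 down, and without shNYNRIN replicate 4 none up and 1 down, MRPS21, where 4.99% and 5.05% of all genes rose and 4.28% and 4.01% fell. Without the mean-variance trend none rose and 4 fell (5.48%), the same share as among all genes, of which 5.52% fell and 8.27% rose.

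The effects of the hairpin in the sets differed by limma for 17 members, and in each the value of set 2 was the lower. No member passed with a higher value in set 2, where 3 had an unadjusted p under 0.05. In either direction 32 members and 4458 of all 12939 genes had one. The background was 10.02% of genes with a lower and 10.3% with a higher value in set 2. The 17 were 9 MRPL genes (19.1%) and 8 MRPS genes (30.8%), or by place 18.4% of large and 34.8% of small subunit genes. Of these, 16 were positive in set 1 and negative in set 2, with MRPS15 at only 0.0041 in set 1. The differences were -0.58 for MRPL24 (limma adjusted p = 0.0027), -0.54 for MRPS26 (0.00986), -0.51 for MRPL13 (0.00396), -0.47 for MRPL40 (0.0133) and -0.45 for MRPL39 (0.00198). MRPS31 (-0.40), MRPL3 (-0.40), MRPS7 (-0.39), MRPL11 (-0.34) and MRPL18 (-0.33) followed. The exception in sign was MRPS21, negative in both sets. Over the alternatives tried, 10 to 24 members had a lower value and up to 3 a higher one. Among all genes 5.35% to 20.7% were lower and 5.71% to 18.8% higher.

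Read by library, the same contrast is one between name numbers. In 14 members (19.2%), 7 MRPL and 7 MRPS genes, all tested libraries named 1 or 2 lay above all tested libraries named 3 or 4. In none did they all lie below, and the shares of all genes were 9.08% and 7.86%. MRPL13 had 42.7, 41.7 and 39.2 FPKM in libraries named 1 or 2, which carried both hairpins, and 32.1, 34.3, 33.9 and 35.4 FPKM in those named 3 or 4. MRPS31 had 32.5, 32.6 and 33.1 FPKM in the former and 30.5, 29.01, 27.5 and 26.8 FPKM in the latter. The groups of libraries did not overlap by name number in either gene, while the hairpin groups did. MRPL3, MRPS15, MRPS21 and MRPL40 were the members that passed for the difference and overlapped between name numbers.

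The mean of log2(FPKM + 1) over all members gave the same order of libraries. It was 4.69, 4.68 and 4.67 in shNYNRIN replicates 1 and 2 and shCTL replicate 4, and 4.66 in the whole-number control plus 0.5. It was 4.58 and 4.61 in shCTL replicates 1 and 2 and 4.60 and 4.59 in shNYNRIN replicates 3 and 4. The highest shCTL library thus lay close to the shNYNRIN libraries of set 1, and the lowest shNYNRIN libraries close to the shCTL libraries of set 1. The mean effect over members was 0.088 in set 1 and -0.068 in set 2, with an SD of 0.0135 between replicates.

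Of the 15 members that rose in set 1, MRPL10 and MRPS35 also rose in set 2 (13.3%), 5 fell there (33.3%; MRPL24, MRPL39, MRPS26, MRPL3 and MRPL18) and 8 passed neither way (53.3%). Of the 1207 genes of any kind that rose in set 1, 14.9% rose, 17.6% fell and 67.5% passed neither way in set 2. In sign alone, 19 members were positive in both sets and 12 negative in both, together 42.5% of the 73, against 49.4% of all genes tested. Among genes that rose in set 1, the share of members that also rose in set 2 is near that of all genes. Of the 73 members 2.74% rose in both sets, a count of 2, against 1.39% of all genes tested. Whether these or the other shares differ was not tested. MRPL10 (ENSG00000159111, chr17:47823272-47831534, minus strand) had 41.99, 42.6 and 39.6 FPKM in shCTL, with 38 in the whole-number control, and 52.2, 46.9, 47.7 and 47.9 FPKM with shNYNRIN. MRPS35, added in mitochondria, had 46.2, 45.6 and 47.2 FPKM in shCTL and 50.2, 52.1, 54.1 and 54.0 FPKM with shNYNRIN. The hairpin groups did not overlap in either gene. MRPS21 was the reverse, with 39.1, 37.5 and 41.04 FPKM in shCTL and 34.7, 36.5, 31.9 and 31.0 FPKM with shNYNRIN, again with no overlap.

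Over the 7 libraries, 9 members (12.3%) lay higher in every shNYNRIN than in every shCTL library and 3 (4.11%) lay lower, close to the background of 10.7% and 5.51% of all genes. A single effect fitted to both sets by limma called no member, with a background of 0.193% of genes higher and 0.124% lower. An unadjusted p under 0.05 was reached by 12 members and by 2423 of all 12939 genes, a larger share. The highest values were MRPL10 at 0.24 (limma adjusted p = 0.0796, 0.00972 to 0.445 over 19 alternatives), MRPL55 at 0.22 and MRPL41 at 0.19. The lowest were MRPS21 at -0.21, MRPL1 at -0.16 and MRPS36 at -0.13, none past the threshold. That fit carries the difference between the sets in its residual spread. The average of the effects in the sets, from the model with the interaction, called 8 members higher (MRPL10, MRPS35, MRPL49, MRPL41, MRPL35, MRPL34, MRPS10 and MRPS30) and 3 lower (MRPS21, MRPL1 and MRPS15), against 10.7% and 7.08% of all genes. When shCTL replicate 4 is dropped, the single effect comes from set 1 only, and 16 members were higher, against 9.49% of all genes, with 6.68% lower.

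Members of bacterial kin (43) and those added in mitochondria (29) were set side by side, with MRPS36 in neither. In set 1, 9 of the former (20.9%) and 6 of the latter (20.7%) rose, against 9.33% of all genes, with medians of 0.088 and 0.083. In set 2, 10 (23.3%) and 3 (10.3%) fell, against 8.71% of all genes, so that the share of those added in mitochondria was near that of all genes. Their medians were -0.12 and -0.026, and 2 of each class rose (4.65% and 6.90%, against 11.6%). The effects differed between the sets, downward, in 13 (30.2%) and 4 (13.8%), against 10.02% of all genes. The difference between the classes was not tested.

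Some values may hold reads of other genes, because no source used here gives the strand setting of the counting. All 73 members were found in GENCODE 29 on 21 chromosomes, with 8 each on chromosomes 1 and 17, and 36 shared no exonic base with another gene. MRPL12, which forms the stalk with MRPL10, shared 68.2% of its exonic bases with a readthrough gene on its own strand. It had 14.1, 14.1 and 13.8 FPKM in shCTL and 13.5, 13.1, 12.6 and 13.3 FPKM with shNYNRIN, did not pass in any comparison, and is uncertain. MRPS18A shared 47.0% with RSPH9 on the opposite strand, which also makes its rise in set 2 uncertain, and its paralogue MRPS18C (6.12 FPKM) shared 40.2% with ABRAXAS1. Named pseudogenes of 21 members were listed in the second table. MRPL50P1 stood at 50.6, 40.8 and 44.1 FPKM there in shCTL replicate 4 and shNYNRIN replicates 3 and 4, above MRPL50 at 12.2, 11.03 and 12.3 FPKM, so reads of MRPL50 may be split between them.

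Genes that work with the mitochondrial ribosome were followed in lists chosen with earlier results of these data known. Among all genes tested 9.33% rose and 6.61% fell in set 1, and 11.6% rose and 8.71% fell in set 2. In lists of 5 to 24 genes a count of 1 or 2 is not read as a result about the list. Of 5 ribosomal proteins with other symbols, AURKAIP1 rose in set 1 (110.7 and 116.6 to 132.5 and 125.8 FPKM) and DAP3, a small subunit GTP-binding protein, rose in set 2 (84.8 to 93.0 and 94.2 FPKM). Of 24 assembly genes, 2 rose in set 1 (8.33%, below the share of all genes), the helicase DHX30 (0.19) and ERAL1 (0.14), which binds the small subunit RNA. In set 2 the assembly genes MTERF3 (-0.27), RCC1L (-0.27), C1QBP (-0.27) and DHX30 (-0.16) fell (16.7%) and NOA1 (0.43) rose (4.17%). The difference between the sets was positive for DAP3, NOA1 and RPUSD4 and negative for AURKAIP1, DHX30, MTERF3, RCC1L and C1QBP, each passing by limma.

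The list of 15 translation factors also holds OXA1L, LRPPRC and SLIRP, which have other roles. Of the 15, 1 rose (6.67%) and 2 fell (13.3%) in set 1, while 5 rose (33.3%) and 1 fell (6.67%) in set 2. The falls were OXA1L and LRPPRC in set 1 and SLIRP in set 2. The single rise in set 1 and the single fall in set 2 are below the shares of all genes. OXA1L, which inserts newly made proteins into the inner membrane, had 64.3 and 65.8 FPKM in shCTL and 51.6 and 48.9 FPKM with shNYNRIN in set 1. In set 2 it had 49.7 FPKM in shCTL replicate 4, 51 in the whole-number control, and 64.3 and 62.6 FPKM with shNYNRIN. Its libraries named 3 or 4 were thus the higher ones, the opposite order to MRPL24, with log2 fold changes of -0.37 and 0.35. LRPPRC, which stabilises mitochondrial messenger RNAs, fell in set 1 (-0.18), and its partner SLIRP fell in set 2 (-0.31). GUF1 rose in both sets (0.22 and 0.22).

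Among 13 genes of mitochondrial transcription and RNA processing, the RNA polymerase POLRMT rose in set 1 (0.28) and TFB2M fell in set 2 (-0.24). Of 8 regulators, none passed in set 1, with 1 at an unadjusted p under 0.05, beside 4191 of all 12939 genes. In set 2 NRF1 (-0.31), GABPA (-0.24) and PPRC1 (-0.22) fell, and ESRRA (0.32) and MYC (0.16) rose. NRF1 had 7.48 FPKM in shCTL replicate 4 and 5.76 and 5.97 FPKM with shNYNRIN, beside 6.87 and 6.44 against 6.82 and 6.69 FPKM in set 1. Of 10 proteases and chaperones of the matrix and inner membrane, HSPE1 and CLPX rose in set 1, and HSPE1, HSPD1 and HSPA9 fell in set 2. HSPE1, the co-chaperonin, had 45.4 and 46.6 against 51.9 and 54.2 FPKM in set 1 and 59.6 against 42.4 and 41.3 FPKM in set 2, a difference of -0.70 between the sets (limma adjusted p = 0.000759).

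Of the 73 cytosolic ribosomal protein genes tested, 34 fell (46.6%, against 6.61% of all genes) and none rose in set 1 by limma, with a median of -0.11 and 49 at an unadjusted p under 0.05. In set 2, 11 fell (15.1%, against 8.71%) and none rose, with a median of -0.045 and 21 at an unadjusted p under 0.05. Over all 12939 genes, 4191 reached that p in set 1 and 4421 in set 2. At that unadjusted p, the share of the cytosolic genes in set 2 was thus below that of all genes. The share called lower by limma was above that of all genes, at 15.1% against 8.71%. For the difference between the sets 6 were higher (8.22%) and 4 lower (5.48%), both below the 10.3% and 10.02% of all genes. Whether they differ from the mitochondrial genes was not tested. The 15 genes of mitochondrial DNA that were looked for were not in either table and are not analysed here.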

How the data were processed

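Libraries of 8 samples were made with a SMART-Seq v4 kit, which copies small amounts of RNA by template switching, per the labels' protocols. The submitters' processing notes name Bowtie 0.12.9, Cufflinks 2.1.1 and HTSeq, with mm10 and hg38 as builds, and give none of them a role. No header of the deposited files names a unit, and the authors' values are taken as FPKM because of their scale for 7 libraries. The authors' column for shCTL replicate 3 has whole numbers only and is used as a score. Where shCTL replicate 4 lay at 10 to 30 FPKM, that column was lower by a median of -0.5003. In the first deposited table the authors also give a mean normalized count per gene (treated as a signal), a log2 fold change, a p-value and a q-value. Which program made these is not stated in any source used here.

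Values were tested as log2(FPKM + 1) by limma 3.58.1 (R 4.3.3), two-sided and with a trend of variance on mean. A gene needed 1 FPKM or more in 2 or more of the 7 libraries, and p-values were adjusted by Benjamini-Hochberg across 12939 genes, at 0.05. Fold changes understate those of low genes. Effects within sets, their difference and their average came from a model with group, table and interaction (3 residual degrees of freedom). The lone control of set 2 is there taken to vary like the other libraries. A single effect came from an additive model (4 residual degrees of freedom). Positions and exon overlap come from GENCODE 29 on GRCh38, and promoters from RefSeq. Counts over lists carry no test. A further marker of other cells is not reported here.

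Members, lists and tests were chosen with earlier results of these data known. Named were, in each comparison, up to 10 rises and 10 falls that passed (if none, the 3 largest each way), the 3 highest and lowest levels per subunit, the MRPS18 paralogues, MRPS30, MRPL12, up to 4 passing genes of each related list, NYNRIN and TXNIP. The alternatives were other pseudocounts, filters and scalings, shCTL replicate 3 included, no trend, each library left out, replicate blocks and subunit by place.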

Additional observations from a re-analysis of the deposited data

Results flagged for a closer look

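MRPL55 had 14.6, 14.6, 14.4 and 12.1 FPKM with shNYNRIN, and the gap from shNYNRIN replicate 4 to the nearest of the others was 0.916 of the whole range. Chance alone can set a library apart in this way when 73 members are looked at, and 1 member of 73 was marked. The shNYNRIN libraries come from both sets, so no rate of chance is given.

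The log2 fold change of set 2 minus that of set 1 passed by limma for 17 members, all negative. The values were -0.579 for MRPL24, -0.538 for MRPS26, -0.511 for MRPL13, -0.467 for MRPL40, -0.455 for MRPL39, -0.400 for MRPS31, -0.398 for MRPL3, -0.388 for MRPS7 and -0.342 for MRPL11. They were -0.328 for MRPL18, -0.328 for MRPS9, -0.308 for MRPS10, -0.298 for MRPL30, -0.278 for MRPS2, -0.273 for MRPS21, -0.260 for MRPL47 and -0.259 for MRPS15. In 13 of the 17 the tested libraries named 1 or 2 all lay above those named 3 or 4. The set difference and the name number cannot be told apart, so this restates the contrast that picked the 17. It is no separate result.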

How the results depend on the processing

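Under the alternatives, 146 counts and means over members stayed close to the reported value and 37 moved. For single genes, 547 values kept direction and call, 78 lost the call, 8 gained it and 1 reversed. In set 1 the rises were 9 with upper-quartile scaling, 4 without the mean-variance trend and 7 with a replicate block by the number in the title, where 6.10%, 4.39% and 2.91% of all genes rose. Without the trend, set 2 had 0 rises and 4 falls, and the difference between the sets had 10 lower members, where 8.27%, 5.52% and 6.17% of all genes did, so that the falls in set 2 were at the share of all genes. Members with a higher difference, 0 in the report, were 3 with genes of at least 10 FPKM, 2 with upper-quartile scaling, 1 with quantile normalization, and 2 with shCTL replicate 3 as deposited or plus 0.5. In these settings 10.3% to 18.8% of all genes were higher, in each a larger share than among the members. For a single effect over both sets, 2 members rose with shCTL replicate 3 as deposited or plus 0.5, where 1.94% and 2.26% of all genes rose. Taking libraries named 1 or 2 against 3 or 4 in place of the set was an alternative chosen after seeing the data. With it 1 member rose and 1 fell, where 2.60% and 1.48% of all genes did. With the effects averaged 8 rose and 3 fell, where 10.7% and 7.08% of all genes did. None of these counts is read as a result about the members. The large minus small level was 0.64 by place in the ribosome, 0.65 with a pseudocount of 0.1 and 0.35 for members of at least 10 FPKM. With upper-quartile scaling the mean effect was 0.050 in set 1 and -0.088 in set 2, and by place the large minus small effect in set 2 was 0.066. MRPS36 turned from -0.13 to 0.0066 over both sets without shCTL replicate 4, and lay between -0.213 and 0.0066 with each library left out. The causes of these shifts were not tested.

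With each library left out in turn, set 1 had 4 to 16 rises and 0 to 1 falls, and set 2 had 0 to 5 rises and 1 to 14 falls. The difference had 0 higher and 11 to 18 lower members, and the single effect 0 to 16 rises and 0 falls. Among all genes 2.56% to 9.49% rose and 2.18% to 6.68% fell in set 1. In set 2, 4.99% to 13.2% rose and 4.01% to 9.97% fell. For the difference 5.71% to 10.2% were higher and 5.35% to 10.1% lower, and for the single effect 0 to 9.49% rose and 0 to 6.68% fell. The level difference was 0.616 to 0.626, the mean effect 0.074 to 0.102 in set 1 and -0.072 to -0.064 in set 2, and the large minus small effect -0.0018 to 0.035 in set 1 and 0.043 to 0.054 in set 2. Leaving out shCTL replicate 4 gave no value for set 2 or the difference, since no control would remain.

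The numbers were not shown to pair the libraries. Deviations from the group means over 5395 genes had an r of 0.0989, 0.151, 0.166 and 0.136 for equal library-name numbers. Equal title numbers had -0.137, -0.179, -0.169 and -0.151. Unequal library-name numbers, both of 1 and 2 or both of 3 and 4, had similar values of 0.191, 0.141, 0.151 and 0.161. Unequal title numbers within a set had -0.165, -0.104, -0.133 and -0.155. A replicate block by either number called 0 members over both sets, and 0 of all 12939 genes. That count therefore says nothing about the members or about pairing.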
